A study of Mus musculus with 4 samples.

Results

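The genes described here are the cytosolic chaperones and heat shock genes of the mouse, together with their mitochondrial and nuclear relatives. They were chosen by gene symbol from the protein-coding genes in the tables: those whose symbols start with Hspa, Hspb, Hspd, Hspe, Hsph, Hsp90, Dnaja, Dnajb or Dnajc, the numbered Cct genes, Tcp1 and Hsf1. Hspa14 was not analysed here. Cct6a, protein-coding in RefSeq, was kept although GENCODE M21 gives it as a processed transcript. Left out were 5 chaperones of the endoplasmic reticulum (ER), Hspa5, Hsp90b1, Dnajb9, Dnajb11 and Dnajc3, and 11 pseudogenes. The rule found 79 of the 38124 genes in the tables. They were 10 subunits and relatives of the CCT chaperonin, 12 HSP70 and Hsp110 genes, 2 HSP90 genes, 8 small heat shock proteins, 2 genes of the mitochondrial chaperonin, J-proteins of class A (4), B (11) and C (27), Hsf1, and Hspbp1 and Hspbap1, which share the letters Hspb but are HSP-binding proteins.

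RNA was sequenced from intestinal cells of C57BL/6 mice that carried GFP, all 71-week-old males. Their feed was either high in fat (HFD) or a control. The labels name the GFP-high fraction intestinal stem cells and the GFP-low fraction progenitors. The libraries were control GFP-low, HFD GFP-low, control GFP-high and HFD GFP-high, 1 of each. Each was made from sorted cells pooled from 2 to 5 mice, so no group has a replicate. The p-values below rest on the spread among these libraries alone, and that spread may be technical. The sources used here name neither the gene that drives GFP nor the makeup of the feeds. Whether the fractions of 1 diet shared their mice is not in the labels.

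Chaperones bind unfolded proteins and help them reach or keep their folded state. HSP70 proteins bind short exposed stretches in a cycle of ATP use that J-proteins start and nucleotide exchange factors such as Hsp110 end. HSP90 acts later, on kinases, receptors and other clients, and the ring-shaped CCT chaperonin folds actin, tubulin and other proteins in its chamber. Heat shock factor 1, encoded by Hsf1, binds repeats of the unit GAA and its reverse, spaced by any pair of bases, in the promoters of the inducible chaperones. In the intestine the stem cells at the crypt base divide often, and their progeny include secretory cells with a large ER.

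The sorted fractions differed as labelled. All 11 stem cell markers tested, Lgr5 among them, were called higher in GFP-high by edgeR, where 22% of all tested genes were. Called lower were 10 of 11 enterocyte, 7 of 7 goblet, 5 of 6 Paneth and 5 of 8 enteroendocrine markers. The share of all tested genes called lower was 25.6%. Of 3 tested tuft markers 2 were called lower, while Pou2f3 had a log2 ratio of 0.62 ± 0.32 SE and did not pass. The 7 goblet markers summed to 38842 and 17112 CPM (counts per 1e6 of the TMM-scaled library) in control and HFD GFP-low, and to 3305 and 2965 CPM in control and HFD GFP-high. S-phase genes summed to 905 and 951 CPM in control and HFD GFP-low and to 1515 and 1823 CPM in control and HFD GFP-high. Leukocyte markers summed to between 11.2 and 35.8 CPM, with Ptprc, Cd4, Csf1r and Tyrobp among those at 0 counts in every library. Libraries held 4677389 to 6207080 counts. At these totals, without TMM scaling, a gene with 0 counts could be as high as 0.483 to 0.641 counts per 1e6.

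The promoters that hold heat shock letters are shown first, because they say which of these genes carry letters of the kind that Hsf1 is known to bind. RefSeq windows on GRCm38.p6, from 250 bases before to 50 after a transcript start, were at hand for 63 of the 79 genes. A pair of facing units was searched on both strands as GAANNTTC and TTCNNGAA, and a run of 3 units as GAANNTTCNNGAA and TTCNNGAANNTTC, of which each match also holds the shorter motif. A pair of units stood in a window of 20 of the 63 genes (31.7%), beside 4587 of 27025 genes with a window (17.0%). A run of 3 units stood in 4 of the 63 genes (6.35%), beside 179 of 27025 (0.662%). The 4 were Hsph1, Hspd1, Hspe1 and Dnajb6. Capitals in the sequences mark the runs of 3 units, or in Hspa1b the pair, and leave other pairs in lower case. Each sequence runs 5′ to 3′ on the strand of its gene. A window of Hsph1, an Hsp110 that exchanges the nucleotide of Hsp70, lies on the minus strand at chr5:149636266-149636565. It holds a run of 3 units after the start. A window of Hspd1, the mitochondrial chaperonin Hsp60, lies on the minus strand at chr1:55087883-55088182 and holds 2 overlapping matches to 3 units. The other window of Hspd1, at chr1:55088194-55088493, holds neither motif. A window of Dnajb6, a J-protein known to hold back aggregation, lies on the plus strand at chr5:29735648-29735947 and holds 3 units. Hspa1b, a stress-inducible HSP70, is shown because it was the 1 gene called between the diets, and its window on the minus strand at chr17:34959189-34959488 holds a pair of units.
Hsph1: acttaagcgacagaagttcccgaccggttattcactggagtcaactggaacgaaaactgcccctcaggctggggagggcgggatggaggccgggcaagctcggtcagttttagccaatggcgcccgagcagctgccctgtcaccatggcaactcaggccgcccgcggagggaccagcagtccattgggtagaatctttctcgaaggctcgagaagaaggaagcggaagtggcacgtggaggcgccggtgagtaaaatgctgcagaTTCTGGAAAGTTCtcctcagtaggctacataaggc
Hspd1: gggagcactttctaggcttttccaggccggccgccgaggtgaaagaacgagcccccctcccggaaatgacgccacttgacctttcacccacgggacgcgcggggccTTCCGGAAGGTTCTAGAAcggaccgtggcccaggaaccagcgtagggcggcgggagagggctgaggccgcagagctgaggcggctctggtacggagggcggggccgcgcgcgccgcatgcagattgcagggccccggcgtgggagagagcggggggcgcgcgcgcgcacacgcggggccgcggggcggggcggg
Dnajb6: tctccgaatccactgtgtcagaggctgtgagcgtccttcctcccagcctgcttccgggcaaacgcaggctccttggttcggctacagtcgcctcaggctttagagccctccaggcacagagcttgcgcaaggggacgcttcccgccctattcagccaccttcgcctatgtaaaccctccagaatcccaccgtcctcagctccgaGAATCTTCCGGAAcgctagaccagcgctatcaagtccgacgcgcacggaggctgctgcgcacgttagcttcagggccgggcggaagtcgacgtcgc
Hspa1b: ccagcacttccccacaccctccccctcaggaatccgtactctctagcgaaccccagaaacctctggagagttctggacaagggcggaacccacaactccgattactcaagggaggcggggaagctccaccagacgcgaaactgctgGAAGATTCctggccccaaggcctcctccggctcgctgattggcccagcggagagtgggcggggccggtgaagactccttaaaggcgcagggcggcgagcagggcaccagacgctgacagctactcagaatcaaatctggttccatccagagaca

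The window of Hspe1, chr1:55087898-55088197 on the plus strand, overlaps the printed one of Hspd1, and the marked letters of both are the same bases read on opposite strands. A match is a description of letters and was not tested for binding. Between the fractions, 1 of the 4 genes with 3 units, Hsph1, was called higher and none lower. Of the 10 other tested genes with 2 units, 1 (Cct5) was called higher and none lower. Of the 31 tested genes whose windows held neither, 2 were called higher and 6 lower. Of all 10694 tested genes 22% were called higher and 25.6% lower, and with so few genes in each group these counts set no group apart. The windows of Hsp90ab1, Hsp90aa1, Hspa8, Hsf1, Hspa9, Hspa13 and Cct4 were not used here.

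Of the 79 genes, 58 passed the filter of 20 counts in at least 2 libraries and were tested with edgeR among 10694 genes. Of the 21 others, 9 had 0 counts in every library: Hspb1, Hspb2, Hspb3, Hspb9, Dnajb8, Dnajb13, Dnajc5b, Dnajc5g and Cct8l1. The other 12 had a few counts each, the highest being 31 for Dnajc12 in control GFP-low. All members together held 0.645% of the counts in control GFP-low, 0.637% in HFD GFP-low, 0.788% in control GFP-high and 0.842% in HFD GFP-high. Hsp90ab1, the constitutive cytosolic HSP90, held 25.4% to 33.0% of those counts. Without it the shares were 0.480% in control GFP-low, 0.475% in HFD GFP-low, 0.528% in control GFP-high and 0.578% in HFD GFP-high.

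Per length of exon, in RPKM (CPM for each kilobase of joined exons), Hsp90ab1 stood far above the rest, with levels of 584, 581, 817 and 819 RPKM in control GFP-low, HFD GFP-low, control GFP-high and HFD GFP-high. Next came Cct2 with a mean level of 111 RPKM over the 4 libraries, Hspa9 with 111, Cct5 with 90.0, Hspd1 with 87.1, Hspa8 with 82.5 and Hspe1 with 57.2. Cct2 lay between 94.6 and 127 RPKM and Hspa9, the mitochondrial HSP70, between 100 and 120 RPKM, so their order cannot be set by these libraries. Hsp90aa1, the inducible HSP90, had a mean level of 31.9 RPKM and was 14th in order. The members at the head of the list serve the cytosol (Hsp90ab1, Cct2, Cct5, Hspa8) and the mitochondrial matrix (Hspa9, Hspd1, Hspe1). The rule had left out ER chaperones that were also abundant, so this order says nothing of the ER. In the same order of libraries, Hsp90b1 was at 249, 213, 118 and 119 RPKM. Hspa5 was at 202, 164, 84.8 and 77.2 RPKM.

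**Figure D1:**
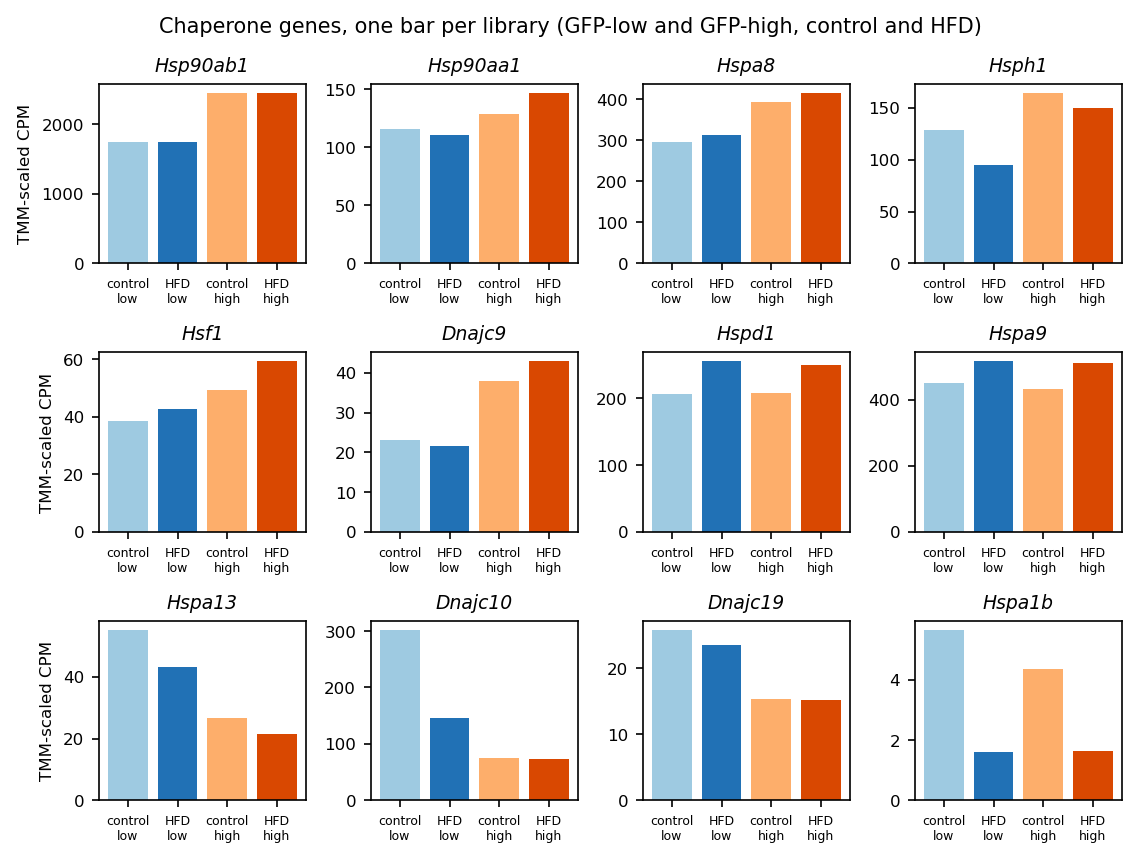
TMM-scaled CPM (vertical axis, linear, from 0, a scale of its own in each panel) of 12 chaperone genes, with 1 bar for each library and no error bar because no group has a replicate. Hsp90ab1, Hsp90aa1, Hspa8, Hsph1, Hsf1 and Dnajc9 had both GFP-high bars above both GFP-low bars, Hspa13, Dnajc10 and Dnajc19 had both below, and Hspa1b had both HFD bars below both control bars.

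The comparison of fractions asks which chaperones differed between stem cells and progenitors over both diets. Of the 58 tested genes, 10 were called higher in GFP-high (17.2%) and 7 lower (12.1%) by edgeR's quasi-likelihood test, where 22% of all tested genes were called higher and 25.6% lower. Both shares lay below those of all genes. The median log2 ratio of the 58 was -0.001, that of all tested genes -0.0007, and 29 genes lay on each side of 0. The 17 called genes kept their direction under both diets, and 1 of them, Hspa13, differed by 2-fold or more. DESeq2 called 3 higher (Hsp90ab1, Hsph1 and Dnajc9) and 2 lower (Hspa13 and Dnajc10), beside 2390 of all 10694 tested genes called in either direction. With library totals in place of TMM factors, the median of the members moved to 0.191, as did that of all genes. Then 18 members were called higher and 3 lower, beside 5536 of all 10694 tested genes called in either direction.

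Both HSP90 genes rose in GFP-high under each scaling tried. Hsp90ab1 (chr17:45567775-45573271) was at 1750 CPM in control GFP-low, 1742 in HFD GFP-low, 2450 in control GFP-high and 2456 in HFD GFP-high. The 2 GFP-high libraries stood together well above the 2 GFP-low ones, and the diets were alike within each fraction. GFP-high exceeded GFP-low by 1.4-fold (log2 0.49 ± 0.11 SE, edgeR adjusted p = 0.00121). Hsp90aa1 was at 116 CPM in control GFP-low, 110 in HFD GFP-low, 129 in control GFP-high and 147 in HFD GFP-high. Its ratio was 1.22-fold (log2 0.29 ± 0.10 SE, edgeR adjusted p = 0.0309), a call that DESeq2 did not make (adjusted p = 0.333).

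Among the HSP70 and Hsp110 genes, 7 of 12 were tested. In GFP-high 2 rose (28.6%) and 1 fell (14.3%), where 22% of all tested genes were called higher and 25.6% lower. With so few genes these shares do not set the family apart. Hspa8, the constitutive cytosolic Hsc70, was at 296 CPM in control GFP-low, 314 in HFD GFP-low, 393 in control GFP-high and 416 in HFD GFP-high. Both GFP-high libraries exceeded both GFP-low libraries, by 1.33-fold (log2 0.41 ± 0.09 SE, edgeR adjusted p = 0.00218), although DESeq2 gave an adjusted p of 0.0642. The exons of Hspa8 hold 3 small nucleolar RNA genes on the same strand, with which it could share reads. Hsph1 was at 129 CPM in control GFP-low, 94.7 in HFD GFP-low, 165 in control GFP-high and 150 in HFD GFP-high. Its lowest library was HFD GFP-low, and GFP-high exceeded GFP-low by 1.42-fold (log2 0.51 ± 0.11 SE, edgeR adjusted p = 0.000893).

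Hspa13, an HSP70 relative of the microsomes that lacks the substrate-binding part, went the other way. It was at 55.3 CPM in control GFP-low, 43.3 in HFD GFP-low, 26.8 in control GFP-high and 21.4 in HFD GFP-high. The GFP-high libraries were both below the GFP-low ones, by 2.04-fold (log2 -1.03 ± 0.14 SE, edgeR adjusted p = 1.69e-05). Hspa4 and Hspa4l, which are also of the Hsp110 kind, did not pass, with log2 ratios of 0.01 ± 0.10 SE and 0.16 ± 0.13 SE. Neither did Hspa9, whose level was 450 CPM in control GFP-low, 517 in HFD GFP-low, 432 in control GFP-high and 511 in HFD GFP-high. For Hspa9 the order of the libraries followed the diet and not the fraction.

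Hsf1 itself was at 38.5 CPM in control GFP-low, 42.5 in HFD GFP-low, 49.4 in control GFP-high and 59.3 in HFD GFP-high. The GFP-high libraries were the 2 highest, and the ratio was 1.34-fold (log2 0.42 ± 0.13 SE, edgeR adjusted p = 0.0118), which DESeq2 did not call (adjusted p = 0.243). Of the 15 members listed as stress-inducible, 12 were tested, and in edgeR 4 rose in GFP-high (Hsph1, Hsp90ab1, Hspa8 and Hsp90aa1) and none fell, where 22% of all tested genes were called higher and 25.6% lower. DESeq2 called 2 of the 4, Hsph1 and Hsp90ab1. Their median log2 ratio was 0.08. Of the 4, Hsp90ab1 and Hspa8 are the constitutive forms named above, although the list holds them. Some heat-induced members of the list were not among the 4. Dnajb1, the inducible partner of Hsp70, had a log2 ratio of -0.10 ± 0.15 SE, and Hspa1b one of -0.25 ± 0.41 SE.

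**Figure D2:**
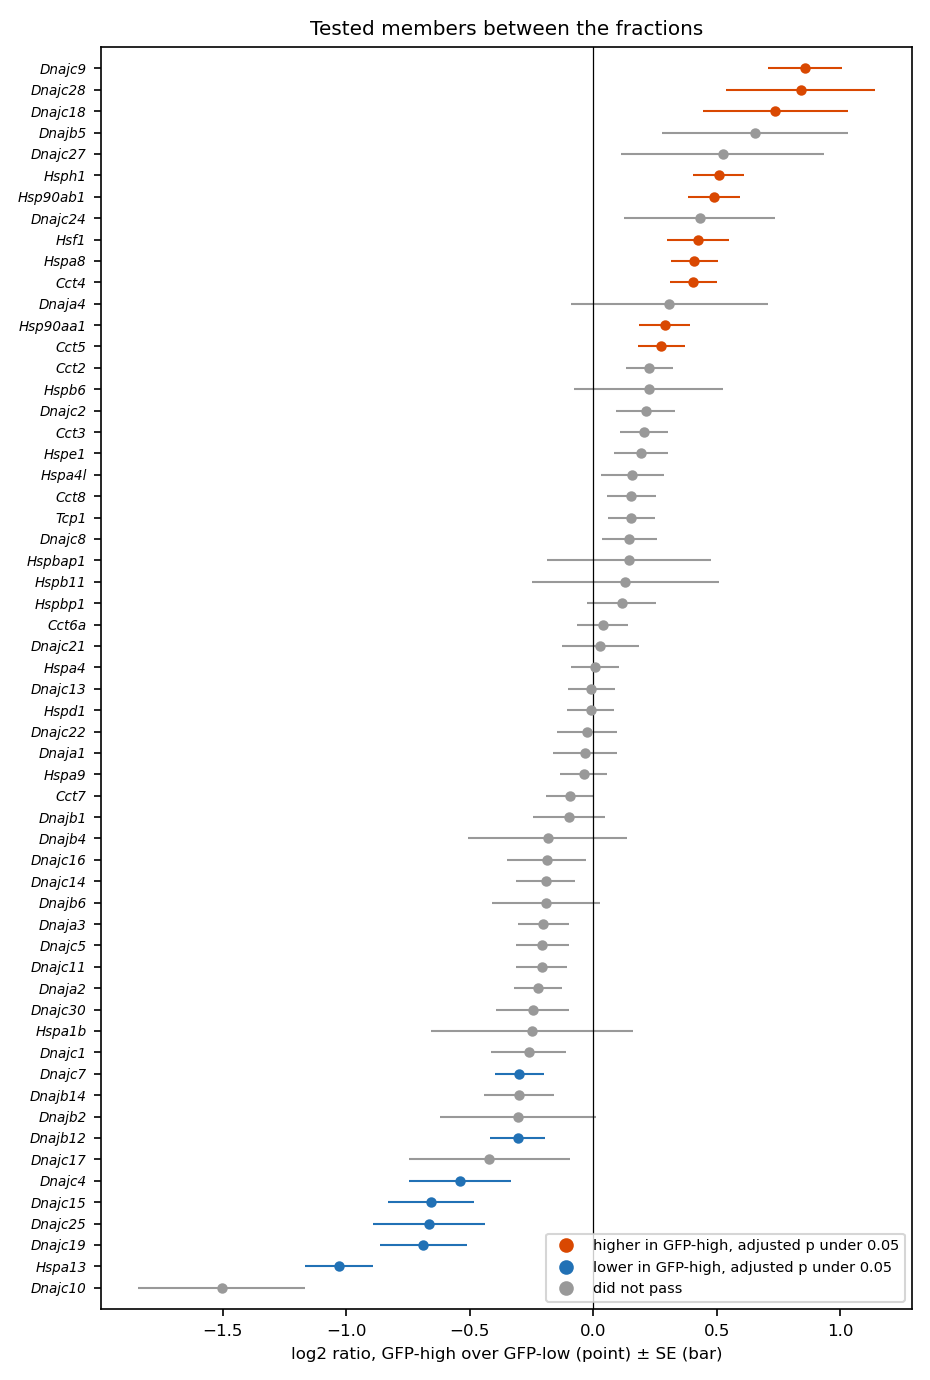
Log2 ratio between the fractions from the edgeR model, positive where GFP-high was higher (horizontal axis) for the 58 tested chaperone genes, in order of the ratio, with bars for ± 1 SE over 4 libraries. Colour marks the 10 genes called higher and the 7 called lower at an adjusted p under 0.05. Dnajc10 has the lowest ratio but a wide bar and did not pass.

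The CCT chaperonin was measured through 8 of its genes. In CPM they summed to 1436 in control GFP-low, 1515 in HFD GFP-low, 1612 in control GFP-high and 1743 in HFD GFP-high. Of the 8, Cct4 and Cct5 rose in GFP-high (25%) and none fell, where 22% of all tested genes were called higher and 25.6% lower. With so few genes these shares do not set the chaperonin apart. DESeq2 called none of the 8, and in edgeR with library totals as the scaling Cct2, Cct3, Cct8 and Tcp1 passed as well. Cct4 was at 151 CPM in control GFP-low, 162 in HFD GFP-low and 207 in both GFP-high libraries, a 1.32-fold difference (log2 0.40 ± 0.10 SE, edgeR adjusted p = 0.00246). Cct5 was at 215 CPM in control GFP-low, 236 in HFD GFP-low, 250 in control GFP-high and 295 in HFD GFP-high, a 1.21-fold difference (log2 0.27 ± 0.10 SE, edgeR adjusted p = 0.0261). Cct7 lay at -0.10 ± 0.10 SE and Cct6a at 0.04 ± 0.10 SE on the log2 scale, and differences between subunits were not tested.

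Tcp1, the alpha subunit, had a log2 ratio of 0.15 ± 0.09 SE, Cct8 of 0.15 ± 0.10 SE, Cct3 of 0.20 ± 0.10 SE and Cct2 of 0.23 ± 0.09 SE, none of them past the threshold. The ring holds its subunits in equal numbers. Per length the 8 genes ranged from 19.7 to 94.6 RPKM in control GFP-low and from 21.1 to 127 RPKM in HFD GFP-high. These lengths join all annotated exons of a gene, which lowers the RPKM of genes with many annotated variants. The RPKM values therefore do not tell whether the messages of the subunits were level. None of the 6 prefoldin subunits, which hand actin and tubulin to CCT, was called between the fractions by edgeR or DESeq2, and 0 had an unadjusted p under 0.05.

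**Figure D3:**
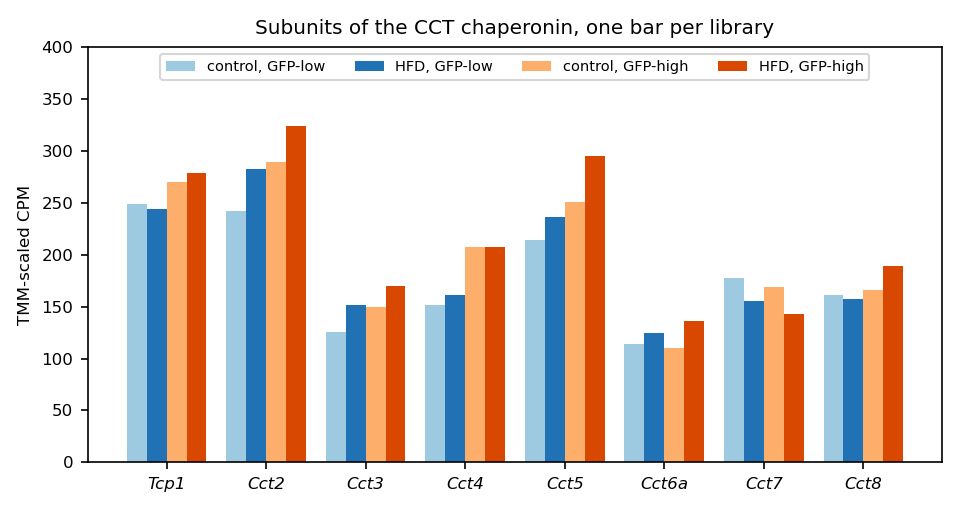
TMM-scaled CPM (vertical axis, linear, from 0) of the 8 tested CCT subunit genes, with 1 bar for each library and no error bar because no group has a replicate. Cct4 and Cct5 have both GFP-high bars above both GFP-low bars and passed the test between fractions. Cct7 has both HFD bars below both control bars and did not pass between diets.

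J-proteins start the ATP cycle of HSP70 and bring it to its tasks. None of 4 class A genes was called by edgeR or DESeq2, and 1 had an unadjusted p under 0.05. In class B 1 of 7 tested, Dnajb12 of the ER membrane, fell (log2 -0.31 ± 0.11 SE, edgeR adjusted p = 0.0326). In class C 3 of 23 (13.0%) rose and 5 (21.7%) fell, shares below the 22% and 25.6% of all tested genes. The fall of Dnajb12, Dnajc7, Dnajc25 and Dnajc4 did not pass with library totals as the scaling, and DESeq2 called none of the 6 J-proteins that fell in edgeR.

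Dnajc9, a J-protein that is also a histone chaperone, had the largest rise of the 58 genes. It was at 23.1 CPM in control GFP-low, 21.7 in HFD GFP-low, 38.0 in control GFP-high and 43.0 in HFD GFP-high. The fractions did not overlap and the ratio was 1.81-fold (log2 0.86 ± 0.15 SE, edgeR adjusted p = 0.000203). Of 16 S-phase genes, 15 were also called higher in GFP-high, and their part in the value of Dnajc9 was not tested. Dnajc28 and Dnajc18 rose from low levels of 5.06 to 9.06 CPM in GFP-low to 9.29 to 11.9 CPM in GFP-high, with edgeR adjusted p-values of 0.031 and 0.0482. Dnajc18 did not pass with size factors from DESeq2.

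Both of the J-proteins of the mitochondrial import motor fell. Dnajc19 was at 25.8 CPM in control GFP-low, 23.5 in HFD GFP-low, 15.4 in control GFP-high and 15.1 in HFD GFP-high. Its fractions stood apart, by 1.61-fold (log2 -0.69 ± 0.18 SE, edgeR adjusted p = 0.00417). Dnajc15, its close relative, was at 37.6 CPM in control GFP-low, 34.6 in HFD GFP-low, 18.3 in control GFP-high and 27.4 in HFD GFP-high, a log2 ratio of -0.66 ± 0.17 SE with an edgeR adjusted p of 0.00705. Dnajc7, which binds both Hsp70 and Hsp90, was at 149 CPM in control GFP-low, 151 in HFD GFP-low, 118 in control GFP-high and 126 in HFD GFP-high, a log2 ratio of -0.30 ± 0.10 SE with an edgeR adjusted p of 0.0187. Dnajc25 and Dnajc4 also fell, with log2 ratios of -0.66 and -0.54.

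Neither gene of the mitochondrial chaperonin passed between the fractions, and Hspe1 passed as higher in GFP-high with library totals as the scaling. Hspd1 was at 207 CPM in control GFP-low, 256 in HFD GFP-low, 208 in control GFP-high and 250 in HFD GFP-high, with a log2 ratio between fractions of -0.01 ± 0.09 SE. Hspe1, its Hsp10 lid, was at 75.9 CPM in control GFP-low, 81.3 in HFD GFP-low, 82.0 in control GFP-high and 98.1 in HFD GFP-high, with a log2 ratio of 0.19 ± 0.11 SE. The exons of these neighbours overlap by 112 bases on opposite strands, and whether the counting used strand is not known. Of 9 other mitochondrial chaperones and proteases tested, edgeR called 2 higher (Grpel2 and Lonp1) and 2 lower (Clpx and Grpel1), close to the shares of all tested genes, and DESeq2 called none of the 4. Grpel1 and Grpel2, exchange factors of Hspa9, had log2 ratios of -0.42 ± 0.12 SE and 0.59 ± 0.13 SE.

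Dnajc10 had the lowest ratio of all members and did not pass edgeR's test with TMM scaling. It passed in edgeR with DESeq2 size factors, with TMM factors from the tested genes, with no filter and without robust shrinkage, and in DESeq2. This J-protein of the ER lumen, a reductase of disulfide bonds, was at 303 CPM in control GFP-low, 145 in HFD GFP-low, 75.1 in control GFP-high and 73.3 in HFD GFP-high. The GFP-high libraries were alike and lowest, and the control GFP-low library was the highest by far. The ratio was 2.84-fold (log2 -1.51 ± 0.34 SE, edgeR adjusted p = 0.0618), and over the alternatives the adjusted p ranged from 2.45e-08 by DESeq2 to 0.0914 with a filter of 100 counts. In the model the unequal diet ratios of the fractions count as spread.

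The 5 ER chaperones left out by the rule show how far Dnajc10 and Hspa13 resemble them. All 5 fell in GFP-high, by 1.92-fold for Dnajb9, 1.94-fold for Hsp90b1, 2.17-fold for Dnajc3, 2.19-fold for Dnajb11 and 2.25-fold for Hspa5 (edgeR adjusted p from 1.19e-07 to 0.00015). The share of all tested genes called lower was 25.6%. Hspa5, the HSP70 of the ER, was at 854 CPM in control GFP-low, 694 in HFD GFP-low, 359 in control GFP-high and 326 in HFD GFP-high. The cytosolic HSP70 Hspa8 ran the opposite course, as did Hsp90ab1 against the ER form Hsp90b1, which was at 1005 CPM in control GFP-low, 857 in HFD GFP-low, 477 in control GFP-high and 481 in HFD GFP-high. Dnajc1, another J-protein of the ER, was at 38.7 CPM in control GFP-low, 32.8 in HFD GFP-low, 27.5 in control GFP-high and 31.8 in HFD GFP-high and did not pass (log2 -0.26 ± 0.15 SE). The members were not sorted by compartment, so Dnajc10, Hspa13 and Dnajc1 do not stand for all members of the ER. All 7 goblet markers were called lower in GFP-high as well, and their part in these values was not tested. In such pooled RNA, fewer cells of a type and less RNA per cell cannot be told apart.

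**Figure D4:**
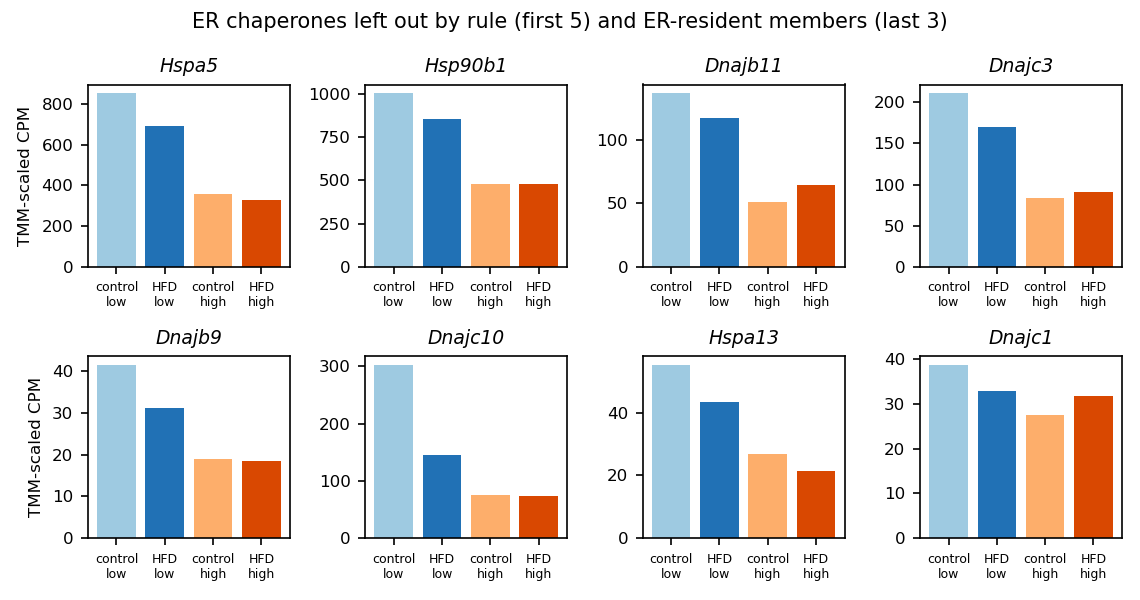
TMM-scaled CPM (vertical axis, linear, from 0, a scale of its own in each panel) of the 5 ER chaperones left out by the rule and of 3 of the members known to reside in the ER, Dnajc10, Hspa13 and Dnajc1. Other members of the ER, such as Dnajb12 of its membrane, are not shown. Each bar is 1 library, with no error bar because no group has a replicate. All 8 genes have both GFP-high bars below both GFP-low bars, and Dnajc10 and Dnajc1 did not pass the edgeR test.

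Proteins that work with HSP70 and HSP90 were given by a list of 31 co-chaperones. In GFP-high 5 rose (Bag2, Rpap3, Fkbp5, Ppid and Nudc) and 5 fell (Pdcl3, Bag3, Fkbp8 and Chordc1 among them) by edgeR, with a median log2 ratio of 0.08. Of all tested genes 22% were called higher and 25.6% lower. Bag2, an inhibitor of the ubiquitin ligase Chip, had the highest ratio (log2 1.04 ± 0.36 SE, edgeR adjusted p = 0.0253), from 3.17 and 3.04 CPM in control and HFD GFP-low to 6.34 and 6.44 CPM in control and HFD GFP-high. Hsf2 rose (log2 1.33 ± 0.36 SE) and Hsbp1, a binding protein of heat shock factors, fell (log2 -0.37 ± 0.13 SE). Of 12 tested targets of Hsf1 outside the rule, Tpr rose and 4 fell, Rgs2, Bag3 and Chordc1 among them. The same shares of all tested genes stand beside these counts. Of the genes called in these lists, DESeq2 called Ppid and Rgs2 alone.

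The comparison of diets asks which chaperones differed under HFD over both fractions. Of the 58 tested genes none was called higher and 1 (1.72%) lower by edgeR, where 2.96% of all tested genes were called higher and 3.5% lower. Without adjustment, 12 members had a p under 0.05, 7 of them higher under HFD and 5 lower. The share of all tested genes with such a p is not given here. DESeq2 called none of the members, beside 187 of all 10694 tested genes. The median log2 ratio of HFD over control was 0.055 for the members and 0.0102 for all tested genes. Markers of other cell types also differed between the diets. Of 11 enterocyte markers 5 were called higher under HFD, with sums of 3433 and 7165 CPM in control and HFD GFP-low and 891 and 1150 CPM in control and HFD GFP-high. Of 6 Paneth markers 5 were called lower, with sums of 2240 and 1103 CPM in control and HFD GFP-low and 756 and 445 CPM in control and HFD GFP-high. Their part in the diet values of the members was not tested. If the fractions of 1 diet shared their mice, these p-values are too small.

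The 1 gene called was Hspa1b (chr17:34956436-34959238), an inducible HSP70 whose promoter is printed above. It had 25 counts in control GFP-low, 8 in HFD GFP-low, 24 in control GFP-high and 11 in HFD GFP-high. Both HFD libraries were below both control libraries, and all 4 values rest on few reads. The ratio was 2.98-fold (log2 -1.58 ± 0.42 SE, edgeR adjusted p = 0.0317). The adjusted p was 0.0594 with size factors from DESeq2 and ranged from 0.0192 to 0.0594 over the edgeR alternatives that kept the gene, while DESeq2's own test gave it no adjusted p.

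Hspa1a, its near-identical neighbour (chr17:34969190-34972156), had 8 counts in control GFP-low, 5 in HFD GFP-low, 0 in control GFP-high and 1 in HFD GFP-high. The authors' counting may have split or dropped reads that fit both. Summed, the pair had 33 counts in control GFP-low, 13 in HFD GFP-low, 24 in control GFP-high and 12 in HFD GFP-high, with a log2 ratio for diet of -1.39 and an edgeR adjusted p of 0.0413. The sum was also lower in both HFD libraries. Immediate early genes, which handling of tissue can raise, summed to 494 and 467 CPM in control GFP-low and GFP-high and to 406 and 399 CPM in HFD GFP-low and GFP-high, with 2 of 9 tested (Klf6 and Jund) called lower under HFD. The median log2 ratio for diet of the 9 tested was -0.41. Fos, Jun, Junb, Jund, Egr1, Klf6 and Btg2 lay below 0, while Ier2 and Zfp36 did not. Ier2 was higher under HFD in both fractions but did not pass (log2 0.42 ± 0.12 SE, edgeR adjusted p = 0.0575), and Zfp36 lay at 0.01 ± 0.14 SE. The part of the immediate early genes in the value of Hspa1b was not tested.

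Other inducible genes did not pass between the diets. For Hsph1 the log2 ratio of HFD over control was -0.28 ± 0.10 SE (edgeR adjusted p = 0.128), and for Dnaja4, a heat-inducible J-protein, it was -1.11 ± 0.40 SE (edgeR adjusted p = 0.117). Dnaja4 had 25 counts in control GFP-low, 8 in HFD GFP-low, 29 in control GFP-high and 22 in HFD GFP-high. Both genes were lower under HFD in each fraction. Dnajb1 lay at -0.19 ± 0.15 SE, Dnaja1 at -0.13 ± 0.13 SE and Hsp90aa1 at 0.07 ± 0.10 SE. The constitutive Hsp90ab1 was level at -0.001, with an SE of 0.11.

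The chaperones of the mitochondrial matrix had ratios above 0 and did not pass. On the log2 scale Hspd1 lay at 0.29 ± 0.09 SE (edgeR adjusted p = 0.0865), Hspa9 at 0.22 ± 0.10 SE (edgeR adjusted p = 0.203) and Hspe1 at 0.18 ± 0.11 SE (edgeR adjusted p = 0.378). For Hspd1 and Hspa9 both HFD libraries exceeded both control libraries. Dnajc11, a J-protein of the mitochondrial outer membrane, was at 104 CPM in control GFP-low, 139 in HFD GFP-low, 95.4 in control GFP-high and 114 in HFD GFP-high. Its log2 ratio of 0.34 ± 0.10 SE had an edgeR adjusted p of 0.0616, which became a call when no low genes were filtered out. Among the other mitochondrial chaperones and proteases Lonp1, the matrix protease, rose under HFD, from 105 to 142 CPM in GFP-low and from 129 to 167 CPM in GFP-high, a log2 ratio of 0.40 ± 0.10 SE with an edgeR adjusted p of 0.0204, which DESeq2 did not call (adjusted p = 0.761).

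The CCT subunits lay between -0.22 and 0.23 on the log2 scale between the diets, with 7 of 8 above 0. None passed in edgeR or DESeq2, and 3 had an unadjusted p under 0.05. Cct3 had the highest ratio, 0.23 ± 0.10 SE, and Cct6a was close to it at 0.22 ± 0.10 SE. Cct7 had the lowest, -0.22 ± 0.10 SE, with 177 CPM in control GFP-low, 156 in HFD GFP-low, 169 in control GFP-high and 143 in HFD GFP-high. It was the 1 subunit gene with a ratio below 0 over both fractions. Hspbp1, an exchange factor of Hsp70, was at 28.5 CPM in control GFP-low, 37.6 in HFD GFP-low, 32.0 in control GFP-high and 39.5 in HFD GFP-high, a log2 ratio of 0.35 ± 0.14 SE with an edgeR adjusted p of 0.165. Of the 31 co-chaperones, Nudc, which helps Hsp90 and the dynein motor, rose under HFD (log2 0.44 ± 0.11 SE, edgeR adjusted p = 0.0244) and none fell, and DESeq2 did not call it (adjusted p = 0.828). None of the prefoldin subunits, heat shock factors, Hsf1 targets outside the rule or 5 ER chaperones was called by edgeR or DESeq2, and 2 of them (Tpr and Hspa5) had an unadjusted p under 0.05.

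In each fraction the diets were also compared by 1 library against 1, which allows no test, as the log2 ratio of CPM with 0.5 added. Intervals are exact 95% intervals for counting error only, and 2-fold calls needed 5 CPM in the higher library. In GFP-high, 0 of 55 members were 2-fold higher, where 0.81% of all genes were, and 0 were 2-fold lower, where 1.51% were. In GFP-low, 0 of 56 were 2-fold higher, where 1.58% of all genes were, and 3 were 2-fold lower, where 2.63% were. None of the 58 tested members was past 1.5-fold in opposite directions in the fractions, where 0.374% of all tested genes were.

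The 3 genes that were lower under HFD in GFP-low were Dnajc10, Hspa1b and Dnaja4. Dnajc10 had a log2 ratio of -1.06 (interval -1.19 to -0.93) in GFP-low and of -0.04 (interval -0.23 to 0.16) in GFP-high. The intervals do not overlap, but they cover counting error only and the difference has no test. The 7 goblet markers summed to 38842 CPM in control and 17112 CPM in HFD GFP-low, and the ER chaperones Hspa5 and Hsp90b1 had log2 ratios of -0.30 and -0.23 there. Their part in the value of Dnajc10 was not tested. Hspa1b had a ratio of -1.54 (interval -3.17 to -0.61) in GFP-low and of -1.17 (interval -2.58 to -0.31) in GFP-high. Dnaja4 had the same counts as Hspa1b in GFP-low and so the same ratio, and in GFP-high a ratio of -0.60 (interval -1.54 to 0.18).

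Next in GFP-low, among genes at 10 CPM or more, were Dnajb1 at -0.47 (interval -0.75 to -0.19), Hsph1 at -0.44 (interval -0.62 to -0.27), Dnajb14 at -0.38 and Hspa4l at -0.37. In GFP-high Dnajb1 lay at 0.08 (interval -0.18 to 0.33) and Hsph1 at -0.14 (interval -0.27 to -0.01). Dnajb1, Hsph1 and Hspa4l are on the list of stress-inducible members, as are Hspd1 at 0.31, Dnajb4 at 0.26, Hspa4 at 0.10, Hspe1 at 0.10 and Hspa8 at 0.08, so that list had no single direction in GFP-low. The highest there were Dnajc11 at 0.43 (interval 0.26 to 0.60), Hspbp1 at 0.39, Dnajc22 at 0.37, Hspd1 at 0.31 and Cct3 at 0.27.

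In GFP-high 39 of the 55 genes at 5 CPM or more were above 0, with a median ratio of 0.14 beside 0.02 for all genes. In GFP-low 25 of 56 were above 0, with a median of -0.03 beside 0.004. The highest ratios in GFP-high, at 10 CPM or more, were Dnajc15 at 0.57 (interval 0.23 to 0.95), Hspb6 at 0.50, Dnajc4 at 0.38, Cct6a at 0.30 and Hspbp1 at 0.30. The lowest were Dnajc28 at -0.35, Hspa13 at -0.32, Cct7 at -0.24, Dnajc14 at -0.15 and Hsph1. Hspd1 (0.26 in GFP-high and 0.31 in GFP-low) and Hspa9 (0.24 in GFP-high and 0.20 in GFP-low) had nearly equal ratios in both fractions. Of the 58 tested genes, 36 had ratios of the same sign in both. The shares of all genes above 0 in each fraction, or of the same sign in both, are not given here. These counts were thus not set against all genes.

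**Figure D5:**
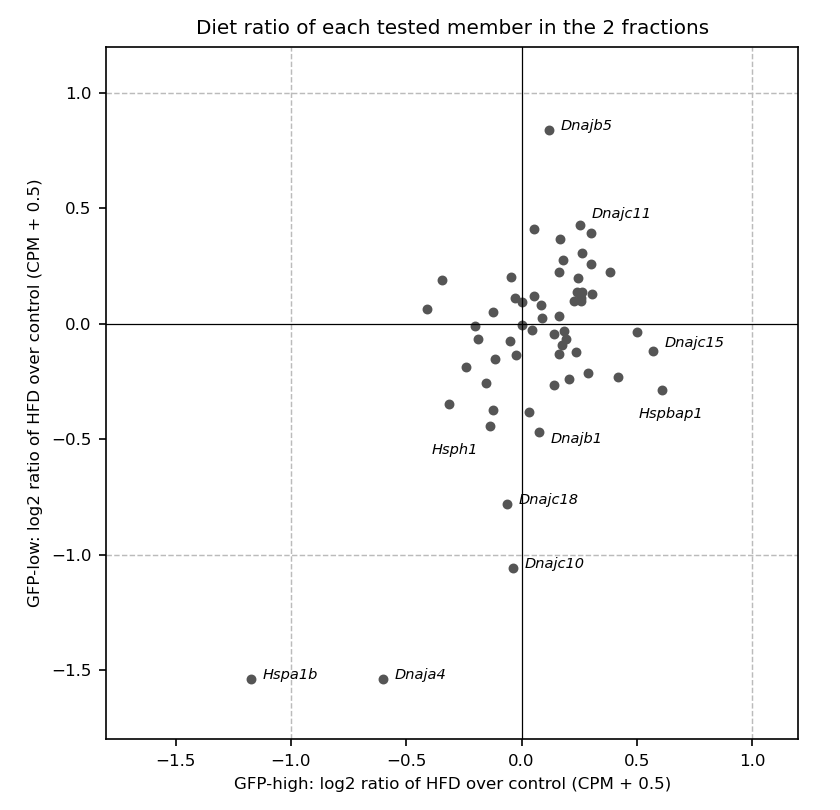
Log2 ratio of HFD over control (CPM + 0.5) for the 58 tested chaperone genes in GFP-high (horizontal axis) and GFP-low (vertical axis), 1 point for each gene, with dashed lines at 2-fold. Hspa1b, Dnaja4 and Dnajc10 lie below the lower dashed line for GFP-low, and no point has a ratio past 2-fold higher. Hspa1b, at -1.17 in GFP-high, lies past the line there too but below 5 CPM.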

How the data were processed

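Poly(A) RNA from sorted cells was made into strand-specific libraries with a dUTP kit, per the labels' protocols. The authors deposited raw read counts for each gene. Per the submitters' processing notes, the tools were cutadapt, TopHat (version 1.4.1) and HTSeq, with the builds GRCm38 and mm10. The sources used here give no annotation release, strand setting of the counting or treatment of reads that match several genes. Genes with near-identical copies may therefore share or lack reads. Of 38124 gene IDs, 36345 matched a symbol. The other 1779 held 1.88% to 2.39% of a library's counts. Positions and exon lengths came from GENCODE M21 on GRCm38. Of the members, 27 overlap an exon of another gene on the opposite strand and 8 on the same strand.

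Groups came from the labels. The filter of 20 counts in 2 or more libraries left 10694 genes, which entered edgeR version 4.0.16 (R version 4.3.3; robust quasi-likelihood F-test, two-sided, TMM scaling, Benjamini-Hochberg over all genes tested, threshold 0.05) in 1 additive model of diet and fraction, which leaves 1 residual degree of freedom. Each SE is the size of the log2 ratio over the square root of F. DESeq2 version 1.42.0, other scalings, filters and models were alternatives. Intervals and limits cover counting error only, since reads carry no molecular identifiers, and a count of 0 was given a limit of 3 counts.

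Genes were named by a list fixed by name, the call for diet, the highest and lowest fraction call of each family, and the 5 highest and 5 lowest diet ratios in each fraction at 10 CPM or more. Of other lists the highest and lowest called gene was named, except where a gene is not reported here. Other genes, such as Dnaja4, Dnajc18 and the ER chaperones, were named after their values were seen. The members and lists were chosen with earlier results of these data known.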

Additional observations from a re-analysis of the deposited data

How the results depend on the processing

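Of the 58 tested genes, 17 were called between the fractions, and 5 were called by the DESeq2 Wald test and 6 with fraction alone in the model, of which the cause was not tested. Of all 10694 tested genes, 5090 were called between the fractions in the main fit and 2390 by the DESeq2 Wald test. With DESeq2 size factors, other filters, library totals, TMM factors from the tested genes (added after seeing the data) or no robust shrinkage (added likewise), 13 to 21 members were called. Over all genes these settings called from 4187 of 7778 with the filter of 100 counts to 5536 of 10694 with library totals. With no filter 5381 of 18918 were called. Library totals moved the median log2 ratio between fractions from -0.001 to 0.191. Between the diets 1 gene was called. The count was 0 with DESeq2 size factors, with a filter of 100 counts (which drops Hspa1b), by the DESeq2 Wald test, with TMM factors from the tested genes and with diet alone. It was 2 with no filter (Hspa1b and Dnajc11) and 2 without robust shrinkage (Hspa1b and Dnajc10). Of all 10694 tested genes, 691 were called for diet in the main fit. DESeq2 size factors gave 468, and the DESeq2 Wald test 187. TMM factors from the tested genes gave 539, library totals 604 and no robust shrinkage 746. The filter of 100 counts gave 639 of 7778 genes, and no filter 1158 of 18918. For fraction alone and diet alone the counts over all genes are not given here. Within GFP-high, 0 genes were past 2-fold, 1 was when 1 CPM sufficed, and 2 were past 1.5-fold. Within GFP-low 3 were past 2-fold, 1 when 20 CPM was required, and 5 were past 1.5-fold. Shares of all genes at these other limits within the fractions are not given here. No called ratio of a single gene changed sign in these alternatives. A fit that leaves out a library has 0 residual degrees of freedom and was not run. The model of diet and fraction compares the fractions within each diet. No pairing by mice beyond that was possible, because the labels do not say which libraries shared mice. Low counts limit Hspa1a, Hspa1b and Dnaja4 most.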
